A study of Mus musculus with 6 samples.

Results

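The inducible heat shock chaperones are the proteins that cells make in quantity when other proteins misfold. The 10 genes described here are *Hspa1a*, *Hspa1b* and *Hspa8* (HSP70 family), *Hsph1* (HSP110 family), *Dnajb1* and *Bag3* (HSP70 cochaperones), *Hsp90aa1* (HSP90 family), *Hspd1* and *Hspe1* (the mitochondrial chaperonin) and *Hspb1* (a small heat shock protein). They were chosen by gene name from 54532 genes in the table, with the difference between the groups in these same read counts already known, so that difference is given as a description with no p-value, and the side of the edgeR threshold on which a member fell is stated only to describe it and supports nothing. All 10 were in the table, and 9 of them were among the 14169 genes with enough counts to enter the fit. *Hspb1* was not.

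The libraries came from mouse acute myeloid leukemia driven by RUNX1-ETO9a (RE9a), a short form of the t(8;21) fusion protein. Lineage-negative liver cells of midgestation male *Phf6 fl/y* fetuses, with or without *Vav1-Cre*, were infected with an RE9a-GFP retrovirus and transplanted serially into male mice (the study's methods give young adult animals), and the GFP+ leukemia cells of the bone marrow were sorted for RNA. The 3 *VC Phf6,RE9a* libraries (replicates 11, 12 and 13) carry Cre and lack PHF6, a chromatin protein, in blood cells, and the 3 *WT Phf6,RE9a* libraries (replicates 1, 2 and 3) carry the floxed allele without Cre. RE9a, GFP and the transplantation are common to both groups, and Vav1-Cre acts throughout blood formation. The passage, the animals' age when the sequenced cells were sorted, and whether the 3 libraries of a group are from different leukemias were not given in the sources used here, so a p-value measures only the spread between these libraries.

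Under normal conditions the transcription factor HSF1 is held inactive by chaperones. When unfolded proteins occupy those chaperones, HSF1 forms trimers that bind inverted repeats of GAA in promoters, called heat shock elements, and the heat shock genes are transcribed. HSP70 binds short stretches of unfolded protein in a cycle in which J proteins such as DNAJB1 trigger ATP hydrolysis, and exchange factors such as HSP110 and BAG3 release ADP and the client. HSP90 acts later, on kinases and transcription factors, many of them oncogenic in leukemia.

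The search was for an exact pair of these repeats, written GAANNTTC or TTCNNGAA, each of which reads the same on both strands. In RefSeq promoters of build GRCm38.p6, 12.8% of 32851 sequences held either pair in the 250 bases before the gene start. Promoters of 8 members were matched by symbol, and 6 of these held a pair there (*Hspa1a*, *Hspa1b*, *Hspd1*, *Hspe1*, *Hspb1* and *Hsph1*). No exact pair was found there for *Dnajb1* or *Bag3*. Imperfect repeats and bases further away were not searched, so this does not show that they lack a heat shock element. *Hsp90aa1* and *Hspa8* were not matched. Stretches that hold matches are shown for *Hspa1a*, *Hspa1b*, *Hsph1*, *Hspe1* and *Hspb1*, with the matching letters in capitals.
Hspa1a, chr17:34972207-34972306, minus strand: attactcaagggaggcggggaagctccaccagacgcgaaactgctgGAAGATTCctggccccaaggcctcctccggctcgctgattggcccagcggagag
Hspa1b, chr17:34959289-34959388, minus strand: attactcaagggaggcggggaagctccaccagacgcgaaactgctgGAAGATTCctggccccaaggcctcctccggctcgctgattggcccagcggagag
Hsph1, chr5:149636352-149636381, minus strand: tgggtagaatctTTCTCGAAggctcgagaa
Hspe1, chr1:55088054-55088081, plus strand: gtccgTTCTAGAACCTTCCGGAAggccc
Hspb1, chr5:135887789-135887838, plus strand: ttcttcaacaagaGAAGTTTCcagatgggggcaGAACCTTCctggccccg

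The printed stretches of *Hspa1a* and *Hspa1b* had 0 differences, and their promoters were identical at 247 of 250 upstream bases. In the *Hspe1* stretch overlapping pairs form a run of 4 alternating repeats of TTC and GAA, each separated by 2 bases, and 0.466% of the promoters held a run of 3 or more. The stretch lies just before the annotated start of *Hspe1* and inside the annotated span of *Hspd1*, in a UTR exon of 1 of its transcripts, and the listed promoters of both genes cover it. The *Hsph1* stretch overlaps a UTR exon of 1 of its own transcripts. A match of these letters is a description and does not show that HSF1 was bound.

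*Phf6* itself, on chrX:52912266-52956943, checked the labels. It had 1044, 827 and 1142 counts in *WT Phf6,RE9a* and 388, 314 and 331 in *VC Phf6,RE9a* libraries, and its log2 fold change was -1.66 (standard error [SE] 0.13, edgeR adjusted p = 9.3e-05). The groups did not overlap, and reads of the gene remained in each *VC Phf6,RE9a* library. Total counts ran from 15675358 to 16817994 a library, so that 3 counts, the limit a count of 0 allows, came to between 0.175 and 0.204 CPM, for counting error only. CPM here are counts scaled to a common library size after TMM. No library was a copy of another, since replicates differed beyond sampling of reads (chi-square per gene, 11.7 to 45.2).

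The members as a group took 0.374%, 0.310% and 0.440% of all counts in *WT Phf6,RE9a* and 0.671%, 0.755% and 0.671% in *VC Phf6,RE9a* libraries. Of the 9 in the fit, 5 were on the far side of the threshold (adjusted p under 0.05) and higher in *VC Phf6,RE9a* cells (*Hspa1a*, *Hspa1b*, *Hsph1*, *Hsp90aa1* and *Hspd1*), 0 were past it and lower, and 4 were not past it (*Dnajb1*, *Hspa8*, *Hspe1* and *Bag3*). The count of 5 became 3 without *WT Phf6,RE9a* replicate 1 or without *VC Phf6,RE9a* replicate 12. In both of these fits *Hsp90aa1* and *Hspd1* were not past the threshold. *Hsp90aa1* was also not past it without *VC Phf6,RE9a* replicate 11 or 13. Over all genes 44.2% were past the threshold, 21.5% higher and 22.7% lower, and nothing is read from the members' count, since this contrast was known when they were chosen. Their median log2 fold change was 0.43, and that of all tested genes 0.013. In bulk RNA, fewer cells of a type and less RNA per cell cannot be told apart.

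**Figure D1:**
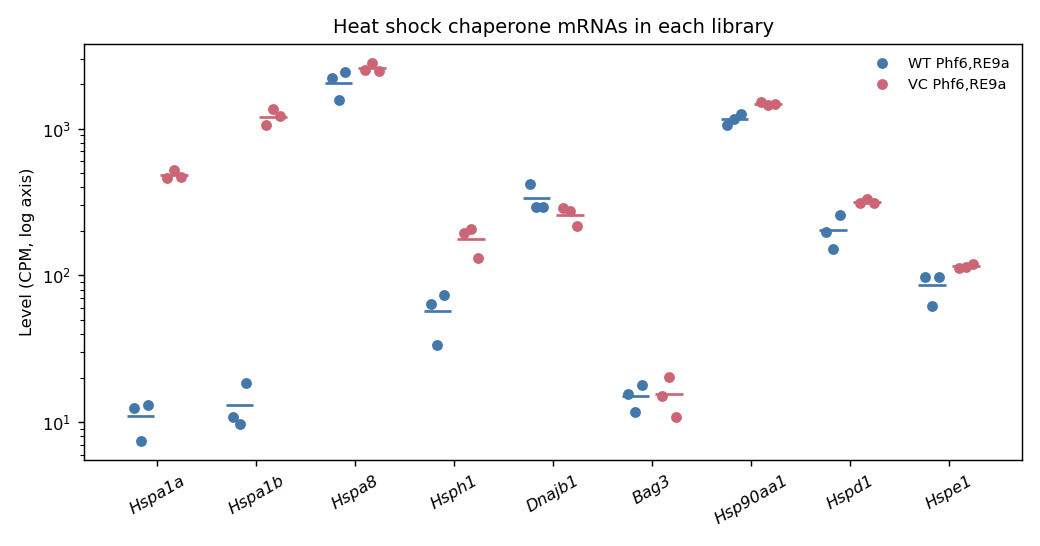
Level of each tested member in each library, in CPM on a log axis, with 3 *WT Phf6,RE9a* libraries in blue and 3 *VC Phf6,RE9a* libraries in red and a bar at the group mean. *Hspa1a* and *Hspa1b* stand far apart between the groups, *Hsph1* less so, and the groups of *Bag3* overlap.

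The stress-induced HSP70 genes held the widest difference. *Hspa1a* and *Hspa1b* are single-exon genes that encode nearly the same protein, HSP70 proper, which healthy unstressed cells make little of. *Hspa1a* (ENSMUSG00000091971, chr17:34969190-34972156, minus strand, GRCm38) had 191, 109 and 215 counts in *WT Phf6,RE9a* libraries and 7800, 8990 and 7850 in *VC Phf6,RE9a* libraries. Each *VC Phf6,RE9a* library was far above each *WT Phf6,RE9a* library, and those of 1 group lay close together. The mean went from 10.9 ± 3.08 to 484 ± 35.0 CPM (SD, n = 3), which is 44.1-fold (log2 fold change 5.46, standard error 0.22).

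*Hspa1b* (ENSMUSG00000090877, chr17:34956436-34959238, minus strand) had 168, 143 and 307 counts in *WT Phf6,RE9a* and 17902, 23220 and 20358 in *VC Phf6,RE9a* libraries. The gap was wider still than for its neighbour. Means were 13.1 ± 4.82 and 1206 ± 148 CPM (SD, n = 3), a difference of 92.0-fold (log2 fold change 6.52, SE 0.28). By FPKM, a level per length, *Hspa1b* ranked 8053 among the tested genes in *WT Phf6,RE9a* cells and 71 in *VC Phf6,RE9a* cells, and *Hspa1a* ranked 8735 and 238. By the size of the increase they ranked 48 and 87 of 14169 genes.

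These genes share long stretches of sequence, so the split of reads between them is uncertain. Of the 100-base windows in the transcript of *Hspa1a*, 47.1% also occurred in *Hspa1b*, and 49.9% of those of *Hspa1b* occurred in *Hspa1a*. For windows of 150 bases, the read length in the study's methods, these shares were 38.1% and 40.5%. The reads were paired, which these windows do not take into account. The ratio of *Hspa1b* to *Hspa1a* in FPKM was 0.931, 1.39 and 1.51 in *WT Phf6,RE9a* and 2.43, 2.73 and 2.75 in *VC Phf6,RE9a* libraries. The groups did not overlap in that ratio, and how multi-mapped reads were handled was not given in the sources used here. With the counts of both genes summed and refitted, the log2 fold change was 6.14 (SE 0.25), or 70.3-fold.

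*Hspa8* (chr9:40800984-40810087, plus strand) encodes HSC70, the constitutive partner that carries most HSP70 work in unstressed cells. It had 33892, 23017 and 39914 counts in *WT Phf6,RE9a* and 42542, 48133 and 41353 in *VC Phf6,RE9a* libraries. The *VC Phf6,RE9a* libraries were all above, the lowest of them only a little above *WT Phf6,RE9a* replicate 3, and the log2 fold change was 0.33 (SE 0.17). The groups did not overlap in CPM for 8 of the 9 members, 7 with *VC Phf6,RE9a* above and 1 below, and for 57.3% of all tested genes, 28.9% above and 28.4% below.

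Set against *Hspa8* by FPKM, the inducible genes went from a trace to about an equal part of the cytosolic HSP70 mRNA. The summed FPKM of *Hspa1a* and *Hspa1b* was 8.07, 5.91 and 10.9 in *WT Phf6,RE9a* and 525, 654 and 578 in *VC Phf6,RE9a* libraries. Divided by the FPKM of *Hspa8*, this was 0.0158, 0.0164 and 0.0196 in *WT Phf6,RE9a* and 0.911, 1.01 and 1.03 in *VC Phf6,RE9a* libraries. This ratio lies within a library and does not depend on the scaling between libraries. It does depend on the deposited gene lengths, 4301 bases for *Hspa8*, 2967 for *Hspa1a* and 2803 for *Hspa1b*. In counts the pair summed to 25702, 32210 and 28208 in *VC Phf6,RE9a* libraries, below *Hspa8* in each.

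**Figure D2:**
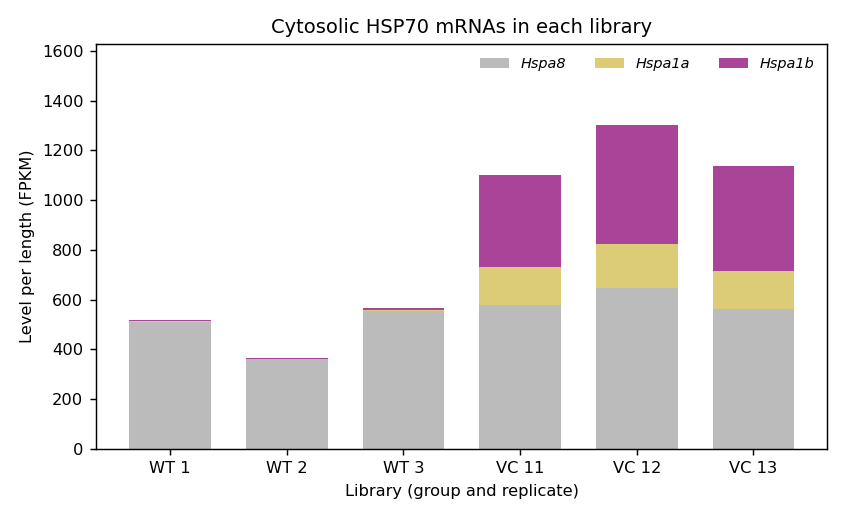
Level per length of *Hspa8*, *Hspa1a* and *Hspa1b* in each library, in FPKM, stacked in 1 bar for each of the 6 libraries. The *Hspa1a* and *Hspa1b* segments are barely visible in the WT libraries, where their sum is at most 10.9 FPKM, and about as tall as the *Hspa8* segment in the VC libraries, where their sum is at least 525 FPKM.

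The exchange factor *Hsph1* (HSP110, also called HSP105; chr5:149614287-149636376, minus strand) came next. It had 987, 493 and 1209 counts in *WT Phf6,RE9a* and 3311, 3567 and 2195 in *VC Phf6,RE9a* libraries. The groups did not overlap, although replicates varied more than for most members, *WT Phf6,RE9a* replicate 2 and *VC Phf6,RE9a* replicate 13 being the lowest of their groups. Means were 56.9 ± 20.8 and 178 ± 41.6 CPM (SD, n = 3), and the log2 fold change was 1.64 (SE 0.29), or 3.12-fold. Relative to its family member *Hspa4*, which cells make without stress, its FPKM was 0.157, 0.0958 and 0.173 in *WT Phf6,RE9a* and 0.599, 0.614 and 0.393 in *VC Phf6,RE9a* libraries.

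The cochaperones *Dnajb1* and *Bag3*, which respond to heat together with *Hspa1a* in textbook accounts, showed no such difference. *Dnajb1* (HSP40; chr8:83608193-83612653, plus strand), which presents clients to HSP70, had 6487, 4303 and 4853 counts in *WT Phf6,RE9a* and 4867, 4719 and 3652 in *VC Phf6,RE9a* libraries. In CPM these were 421, 292 and 294 against 287, 275 and 217, the *VC Phf6,RE9a* libraries lying just below, while the counts themselves overlapped. The log2 fold change was -0.37 (SE 0.17).

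*Bag3* (chr7:128523616-128546981, plus strand), an exchange factor that hands HSP70 clients to autophagy, had 241, 174 and 294 counts in *WT Phf6,RE9a* and 257, 349 and 183 in *VC Phf6,RE9a* libraries. The groups overlapped fully, and the log2 fold change was 0.035 (SE 0.26). Its sign turned when *WT Phf6,RE9a* replicate 2 (-0.12) or *VC Phf6,RE9a* replicate 12 (-0.21) was left out.

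*Hsp90aa1* (chr12:110690605-110702728, minus strand), the inducible cytosolic HSP90, was among the most abundant members. It had 16324, 17259 and 20771 counts in *WT Phf6,RE9a* and 25557, 24899 and 24697 in *VC Phf6,RE9a* libraries. The *VC Phf6,RE9a* libraries were all higher and nearly equal, with means of 1163 and 1476 CPM and a log2 fold change of 0.34 (SE 0.11). With 1 library left out at a time this value ran from 0.28 to 0.40. The FPKM ratio of *Hsp90aa1* to *Hsp90ab1*, the constitutive HSP90, was 0.415, 0.580 and 0.453 in *WT Phf6,RE9a* and 0.587, 0.553 and 0.574 in *VC Phf6,RE9a* libraries, and the groups overlapped.

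*Hspd1* (HSP60, chr1:55077835-55088243, minus strand) and *Hspe1* (HSP10, chr1:55088132-55091307, plus strand) encode the barrel and the lid of the chaperonin that folds proteins inside mitochondria. *Hspd1* had 3058, 2238 and 4235 counts in *WT Phf6,RE9a* and 5270, 5661 and 5237 in *VC Phf6,RE9a* libraries, with a log2 fold change of 0.65 (SE 0.17). *Hspe1* had 1492, 914 and 1621 counts in *WT Phf6,RE9a* and 1906, 1946 and 2025 in *VC Phf6,RE9a* libraries, with a log2 fold change of 0.43 (SE 0.17).
For both genes each *VC Phf6,RE9a* library was above each *WT Phf6,RE9a* library. *WT Phf6,RE9a* replicate 2 was the lowest for both, and without it the log2 fold changes were 0.47 for *Hspd1* and 0.23 for *Hspe1*.

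The annotated ends of *Hspd1* and *Hspe1* overlap by 112 bases on opposite strands, and reads there cannot be assigned without knowing whether strand was used, which was not given in the sources used here. The FPKM ratio of *Hspe1* to *Hspd1* was 0.875, 0.732 and 0.686 in *WT Phf6,RE9a* and 0.648, 0.616 and 0.693 in *VC Phf6,RE9a* libraries, so the ratio overlapped between the groups. A processed copy, *Hspd1-ps3*, had 296, 154 and 214 counts in *WT Phf6,RE9a* and 130, 440 and 109 in *VC Phf6,RE9a* libraries, and with its pseudogenes summed in, the log2 fold change of *Hspd1* was 0.61 (SE 0.17).

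*Hspb1* (HSP25 in mouse, chr5:135887919-135889563, plus strand), an ATP-independent holder of unfolded proteins, was close to absent. It had 2, 0 and 0 counts in *WT Phf6,RE9a* and 0, 4 and 1 in *VC Phf6,RE9a* libraries. These counts are at or near the floor of 3 in both groups, so no fold is given. Its promoter held 2 matches of the pair, and that of *Hspa1a* held 1. Any link between matches and counts was not tested.

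**Figure D3:**
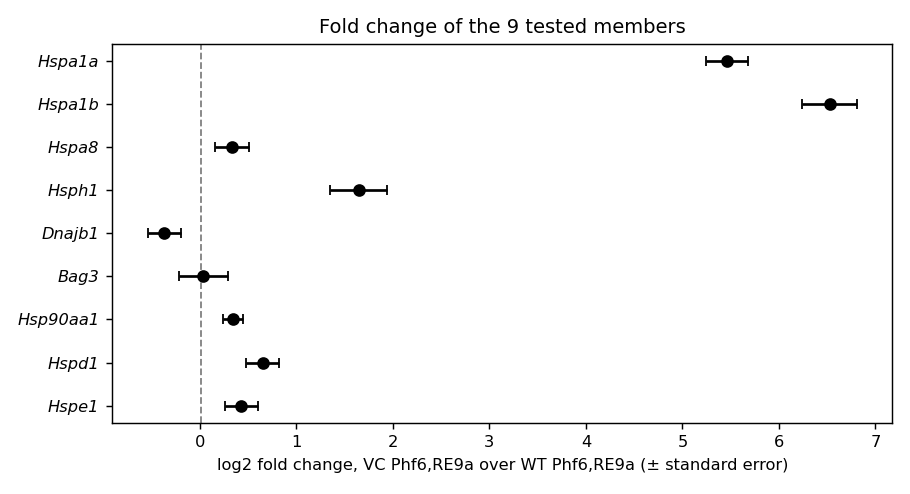
Log2 fold change of the 9 tested members, *VC Phf6,RE9a* over *WT Phf6,RE9a*, with bars of 1 SE and a dashed line at the median of all genes (0.013). *Hspa1b* (6.52) and *Hspa1a* (5.46) lie to the right, *Hsph1* at 1.64, and the other 6 between -0.37 and 0.65.

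Within groups, several members were high or low in the same libraries, and *Hsp90aa1* and *Dnajb1* followed the others least. *WT Phf6,RE9a* replicate 2 was the lowest of its group in CPM for *Hspa1a*, *Hspa1b*, *Hsph1*, *Hspa8*, *Hspd1*, *Hspe1*, *Bag3* and, by a narrow margin, *Dnajb1*. After centring log2 CPM on each group mean, Pearson's r with the mean of the 9 members over the 6 libraries was 0.987 for *Hspa8*, 0.970 for *Hsph1*, 0.956 for *Hspa1a*, 0.928 for *Hspd1*, 0.848 for *Hspe1*, 0.831 for *Bag3*, 0.762 for *Hspa1b*, 0.388 for *Dnajb1* and 0.116 for *Hsp90aa1*. Each member is part of that mean and the libraries share their depth, so these are descriptions without a test. Among 9434 other genes, those most like the mean were *Utp15* (0.997), *Hus1* (0.996), *Nfya* (0.996), *Drc7* (0.996) and *Rac1* (0.995).

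The list of heat shock factors, which bind heat shock elements, and of the HSF1-binding protein HSBP1 and its relative held 7 genes, and 5 were tested. *Hsf1* was higher in *VC Phf6,RE9a* cells, with 867, 734 and 966 against 1435, 1339 and 1398 counts, or 54.8 ± 4.51 and 81.9 ± 3.49 CPM (SD, n = 3). Its log2 fold change was 0.58 (SE 0.09, edgeR adjusted p = 0.0020), and the call held in 14 of 14 alternatives. *Hsf2* (0.049), *Hsf4* (0.20), *Hsbp1* (-0.18), whose product binds HSF1 trimers, and *Hsbp1l1* (-0.14) were not past the threshold, and *Hsf3* and *Hsf5* had at most 6 counts.

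The wider chaperone network moved far less than the HSP70 pair. Over 122 other chaperone, cochaperone and HSF1 target genes, 109 were tested, 32 were higher, 15 were lower and 62 did not pass, with a median log2 fold change of 0.15. Values that follow for single genes of these lists are log2 fold changes. These counts stand beside 21.5% higher and 22.7% lower among all genes. They fell to 18 higher and 9 lower without *VC Phf6,RE9a* replicate 11 and to 17 higher and 10 lower without replicate 12. Counts over all genes fell too, from 3047 higher and 3213 lower to 2179 and 2511 without replicate 11 and to 2193 and 2574 without replicate 12.

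**Figure D4:**
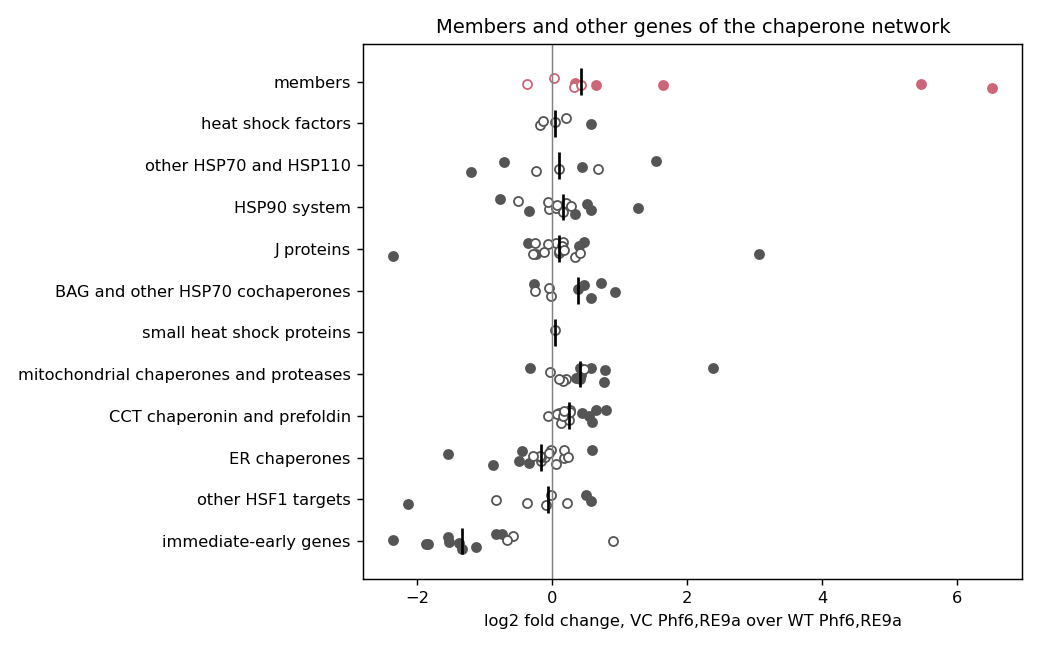
Log2 fold change of each tested gene, *VC Phf6,RE9a* over *WT Phf6,RE9a*, in rows for the members (red) and for the other lists (grey), filled where past the threshold, with a bar at each row's median. *Hspa1a* and *Hspa1b* lie above each gene of the other lists, whose highest value is 3.07, and the immediate-early genes lie mostly below 0, with a median of -1.33.

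Of the other HSP70 and HSP110 genes, 7 of 8 were tested, 2 were higher and 2 lower. *Hspa4l*, an HSP110 relative, rose by 0.44 (SE 0.11, edgeR adjusted p = 0.0166), a call lost without any 1 of the *VC Phf6,RE9a* libraries (0.45, 0.44 and 0.44 without replicates 11, 12 and 13). *Hspa13* fell by 1.19 (SE 0.14, edgeR adjusted p = 0.000538) and *Hspa2* fell by 0.71 (SE 0.14, edgeR adjusted p = 0.00488). The values of *Hspa4* (-0.24) and *Hspa14* (0.10) did not pass.

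The HSP90 system, with the cochaperones that load and release its clients, had 4 of 15 genes higher and 2 lower. *Chordc1* rose by 0.51 (edgeR adjusted p = 0.017), a call lost without *WT Phf6,RE9a* replicate 1 (0.49) or *VC Phf6,RE9a* replicate 11 (0.51) or 12 (0.48). *Aarsd1* rose by 1.27 at about 1 CPM (edgeR adjusted p = 0.0124). *Sugt1*, a client adaptor of HSP90, fell by 0.78 (edgeR adjusted p = 0.000574). *Hsp90ab1* (0.076), *Stip1* (0.16), which joins HSP70 to HSP90, and *Cdc37* (-0.048), which brings kinases, did not pass.

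Of 20 J proteins, the partners of HSP70, 18 were tested, 3 were higher and 3 lower. *Dnaja1* rose by 0.47 (edgeR adjusted p = 0.0304), and that call was lost in 7 of 14 alternatives, with 0.31 without *VC Phf6,RE9a* replicate 11. *Dnajb7* rose by 3.07 from 2, 2 and 4 counts to 23, 21 and 32 (edgeR adjusted p = 0.00119). *Dnajb5* fell by 2.35 (edgeR adjusted p = 0.00185) and *Dnajb6* by 0.36 (edgeR adjusted p = 0.00814), the latter not past the threshold when libraries were scaled by their totals alone (-0.21). The call for *Dnajc5* (-0.24, edgeR adjusted p = 0.0471) held in 2 of 14 alternatives, and *Dnaja4* (0.16) did not pass.

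BAG proteins and other HSP70 cochaperones had 5 of 9 genes higher and 1 lower. *Bag2* rose by 0.73 (edgeR adjusted p = 0.00336), *St13*, the HSP70-interacting protein HIP, by 0.58 (edgeR adjusted p = 0.0136) and *Bag1* by 0.47 (edgeR adjusted p = 0.00501), each in 14 of 14 alternatives. *Bag6* was lower (-0.26, edgeR adjusted p = 0.0385), a call that held in 6 of 14 alternatives. Among the 8 other small heat shock proteins only *Hspb6* could be tested (0.044, not past the threshold), and the 7 others had at most 17 counts in a library.

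The mitochondrial chaperones and proteases, which act beside *Hspd1* and *Hspe1*, had 9 of 15 genes higher and 1 lower, with a median of 0.41. *Htra2*, a protease of the space between the membranes, rose by 0.79 (edgeR adjusted p = 0.00106), *Hscb*, which helps build iron-sulfur clusters, by 0.77 (edgeR adjusted p = 0.00113) and *Dnajc19*, of the import motor, by 0.58 (edgeR adjusted p = 0.00817). *Lonp1*, the matrix protease, fell by 0.32 (edgeR adjusted p = 0.0133), a call lost under library totals alone (-0.17) and without *VC Phf6,RE9a* replicate 11 (-0.29) or 13 (-0.32). *Hspa9*, the HSP70 of mitochondria (-0.033), and *Yme1l1* (0.11) did not pass.

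Of the cytosolic chaperonin CCT and the prefoldin that feeds it, which fold actin and tubulin, 5 of 14 genes were higher and 0 lower. *Cct5* rose by 0.80 (edgeR adjusted p = 0.00317), *Pfdn6* by 0.65 (edgeR adjusted p = 0.0136) and *Pfdn5* by 0.59 (edgeR adjusted p = 0.00318). *Tcp1* rose by 0.44 (edgeR adjusted p = 0.0186), a call lost without *WT Phf6,RE9a* replicate 1 (0.42) or *VC Phf6,RE9a* replicate 11 (0.45), 12 (0.45) or 13 (0.43), and *Cct2* (-0.057) did not pass.

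Chaperones of the endoplasmic reticulum, which answer to a separate stress pathway, had 1 of 17 genes higher and 5 lower, with a median of -0.16. *Dnajb9* fell by 1.54 (edgeR adjusted p = 0.00191), *Sdf2l1* by 0.88 (edgeR adjusted p = 0.00162) and *Pdia6* by 0.44 (edgeR adjusted p = 0.00283). *Hspa5*, the main HSP70 of that compartment (-0.0090), *Calr* (-0.16) and *P4hb* (-0.18) did not pass.

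Other genes known as HSF1 targets had 2 of 8 tested higher and 1 lower. *Mrpl18* rose by 0.58 (edgeR adjusted p = 0.00464) and *Cacybp* by 0.51 (edgeR adjusted p = 0.00744). *Sqstm1*, the autophagy receptor p62, fell by 2.14 (edgeR adjusted p = 0.0016), from 25086, 14162 and 10205 counts to 4665, 3808 and 3914. The ubiquitin gene *Ubb* (-0.37) and *Dedd2* (0.22) did not pass.

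Most immediate-early genes, which cells switch on within minutes of handling or stimulation, moved with the groups in the opposite direction from the HSP70 pair. Of 13 tested, 10 were past the threshold and lower in *VC Phf6,RE9a* cells, and 0 were past it and higher. Among all tested genes 22.7% were lower and 21.5% higher. *Atf3* went the other way without passing (0.91), with 215, 122 and 206 against 660, 276 and 171 counts. The summed level of the 13 genes ran from 32525 to 49639 CPM in *WT Phf6,RE9a* and from 14508 to 23012 in *VC Phf6,RE9a* libraries. *Fos* fell by 1.87 (edgeR adjusted p = 0.000614), *Zfp36* by 1.84 (edgeR adjusted p = 0.000944), *Fosb* by 1.53 (edgeR adjusted p = 0.00447), *Ier3* by 1.38 (edgeR adjusted p = 0.000341) and *Egr1* by 0.84 (edgeR adjusted p = 0.00731). Their part in the members' values was not tested.

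Markers of several blood cell types also differed between the groups, and their part in the members' values was not tested. Whether their reads came from the leukemia cells themselves or from other cells was not tested either. The counts of markers past the threshold stand beside 21.5% higher and 22.7% lower among all tested genes. Mast and basophil markers (8 of 9 lower) summed to 16980 to 27233 CPM in *WT Phf6,RE9a* and 4695 to 5168 in *VC Phf6,RE9a* libraries. Neutrophil markers (9 of 9 higher) summed to 154 to 476 against 971 to 3613 CPM, and erythroid markers (8 of 8 higher) to 1454 to 2199 against 4731 to 5413 CPM. B cell markers (4 of 4 tested higher) summed to 0.611 to 1.10 against 8.50 to 24.6 CPM. T cell markers (1 of 1 tested higher) summed to 1.10 to 1.57 against 6.30 to 8.80 CPM. The 1 tested was *Lck*, at 0.612 and 5.92 CPM on average, and *Cd3e*, *Cd3d* and *Cd3g* were each under 0.2 CPM on average. Macrophage markers (1 of 6 higher) summed to 26.4 to 36.4 against 39.9 to 52.7 CPM, and proliferation markers (4 of 6 higher) to 1636 to 2439 against 2685 to 2875 CPM. Of the markers for the labelled leukemia cells, *Ptprc* (22.7 and 41.1 CPM), *Spi1* (82.4 and 94.9 CPM) and *Mpo* (36.3 and 134 CPM) were present in both groups, and *Kit* was at 2420 and 273 CPM. *Itgam*, the myeloid integrin CD11b, was low in both, with 17, 19 and 78 counts in *WT Phf6,RE9a* and 333, 194 and 78 in *VC Phf6,RE9a* libraries (higher by 2.31 on the log2 scale, edgeR adjusted p = 0.0272).

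*Hspa1b* and *Hspa1a* lie 9951 bases apart in the major histocompatibility region of chromosome 17. Genes within 100 kb of them were examined after the values of the pair had been seen. Of 26 such genes 15 were tested, 4 were higher, 5 lower and 6 did not pass, with log2 fold changes from -5.28 to 1.79. Over all tested genes 21.5% were higher and 22.7% lower, and nothing is read from the count near the pair. No neighbour rose as far as *Hspa1a* or *Hspa1b*, and *C2* fell by 5.28.

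The testis-type HSP70 gene *Hspa1l*, which begins next to *Hspa1a*, had 3, 6 and 11 counts in *WT Phf6,RE9a* and 14, 29 and 21 in *VC Phf6,RE9a* libraries (log2 fold change 1.54, edgeR adjusted p = 0.0382), a call that held in 5 of 11 alternatives. *Gm10501* (1.79, edgeR adjusted p = 0.0164) and *Mpig6b* (1.08, edgeR adjusted p = 0.0358) also had few counts, and their calls held in 7 of 11 and 3 of 11 alternatives. *Lsm2*, which encodes a splicing and decay factor, had 361, 325 and 564 against 699, 776 and 646 counts (0.65, edgeR adjusted p = 0.0194), a call lost without *WT Phf6,RE9a* replicate 1 (0.56) or *VC Phf6,RE9a* replicate 11 (0.66) or 12 (0.59). In the other direction, *C2*, a complement component, fell from 81, 307 and 190 to 3, 10 and 3 counts (-5.28, edgeR adjusted p = 0.000735). *Zbtb12* (-1.46), *Neu1* (-0.83), *Ehmt2* (-0.65) and *Ddah2* (-0.56) were also lower.

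**Figure D5:**
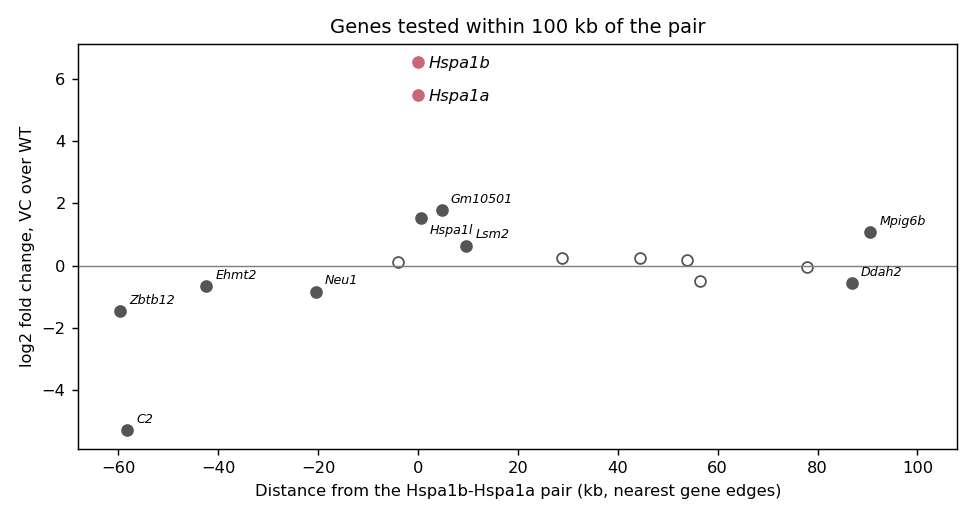
Log2 fold change, *VC Phf6,RE9a* over *WT Phf6,RE9a*, of the 15 tested genes within 100 kb of the HSP70 pair against their distance from it in kb, negative towards lower coordinates, filled where past the threshold and open where not. The pair is drawn at a distance of 0, at 6.52 and 5.46, and the neighbours lie between -5.28 and 1.79.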

How the data were processed

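RNA of sorted leukemia cells was sequenced from TruSeq libraries, 3 per group. The authors deposited read counts per gene, not normalized, and FPKM values computed from those counts and the gene lengths in the table. The deposited table also holds the authors' own comparison (mean normalized counts, log2 fold changes and p-values), which was not used. The submitters' processing notes name Bowtie 0.12.0 and mm8, but of 54495 gene identifiers found in GENCODE M21 (GRCm38), 98.33% had the same start and end, and the deposited GRCm38 coordinates are used. The counting tool, annotation release and strandedness were not given in the sources used here.

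The members and the gene lists were chosen with earlier results of these data known. In R 4.3.3, edgeR 4.0.16 was run on the counts (filterByExpr, TMM scaling, quasi-likelihood test), and p-values were adjusted over 14169 genes by Benjamini-Hochberg, at a threshold of 0.05. The value 2 was the prior count for log2 CPM. The script was tested on simulated data. Named genes were all members, *Phf6*, the heat shock factors and, in each other list, the 3 with the highest mean CPM and the 3 with the smallest p, marker lists being given as sums, together with pseudogene copies and the 5 genes most like the members. The marker genes named singly, *Atf3*, *Hspa1l* and the genes near the pair were chosen after their values were seen. Alternatives were DESeq2 1.42.0, size factors (RLE), library totals alone, counts without a filter, a minimum of 10 in every library, limma 3.58.1 on log2(FPKM + 1) and log2(FPKM + 0.1) for genes with at least 1 FPKM in 3 libraries, each library left out in turn, and summed counts of near-identical copies. 1 result is not reported here. A fit without *Hspa1a* and *Hspa1b* was added after the data were seen. Motifs were searched in RefSeq promoters (GRCm38.p6). Plots used Python 3.11.15 with matplotlib 3.10.9.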

Additional observations from a re-analysis of the deposited data

How the results depend on the processing

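Members are described here and not tested. For the HSP70 pair, 1 of the 14 alternatives was the fit of their summed counts (6.14), which is neither gene's own value. Over the others, log2 fold changes were between 5.14 and 5.61 for *Hspa1a* and 6.27 and 6.86 for *Hspa1b*. Over 14 alternatives they were between 1.36 and 1.86 for *Hsph1*, -0.47 and -0.18 for *Dnajb1*, and 0.16 and 0.48 for *Hspa8*. With each library left out in turn, *Hsp90aa1* ran from 0.28 to 0.40, *Hspd1* from 0.47 to 0.85, *Hspe1* from 0.23 to 0.53 and *Bag3* from -0.21 to 0.23, and the members past the threshold and higher numbered from 3 (without *WT Phf6,RE9a* replicate 1 or *VC Phf6,RE9a* replicate 12) to 6. When the HSP70 pair, 2 of the 5, was removed, 3 members were past it. Other chaperone and HSF1 target genes numbered 17 to 36 higher and 9 to 17 lower with a library left out, beside 2179 to 3132 and 2511 to 3338 over all genes. Library totals alone moved the median of all genes from 0.013 to 0.16 and the split of calls from 3047 higher and 3213 lower to 4048 and 2474, gave *Hspe1* 0.58, past the threshold, and left 8 other chaperone genes lower.

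Genes not past the threshold that changed sign when a library was left out were *Hsf2* (-0.57 to 0.42), *Hsf4* (-0.034 to 0.62), *Hsbp1l1* (-0.59 to 0.54), *Hsp90ab1* (-0.056 to 0.17), *Stip1* (-0.016 to 0.33), *Cdc37* (-0.14 to 0.014), *Hspb6* (-0.13 to 0.28), *Hspa9* (-0.19 to 0.091) and *Hspa5* (-0.23 to 0.11). Under library totals alone *Hsbp1l1* (0.0029), *Cdc37* (0.099), *Hspa9* (0.11), *Cct2* (0.090) and *Hspa5* (0.14) turned positive, as did *Hspa5* (0.0027) with at least 10 counts in every library. The causes of these changes were not tested. *Hspb1* had too few counts for most fits. With 3 libraries against 3, an exact permutation test of a single gene cannot go below p = 0.1. No paired analysis was possible because the groups share no replicate numbers.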
